A study of Mus musculus with 22 samples.

Results

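Nuclear genes of oxidative phosphorylation were followed in the forming forebrain (telencephalon) of the mouse, at E13.5 and E16.5, that is, after 13.5 and 16.5 embryonic days. The telencephalon gives rise to cortex, hippocampus and striatum. Members were the protein-coding genes of the deposited RNA table whose symbols begin with Nduf, Cox4 to Cox8, Atp5 or Uqcr, together with Sdha, Sdhb, Sdhc, Sdhd and Cycs. The rule found 96 of the 21856 protein-coding genes, and no measured value entered it. They comprised 45 genes of complex I (8 of them assembly factors), 4 of complex II, 8 of complex III, cytochrome c, 20 of complex IV and 18 of complex V. Atp5o had 2 gene entries, of which 1 had no counts, so the members lay at 95 loci.

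The embryos of both ages were of the outbred ICR strain, and the labels name no genotype, transgene or agent. Polyadenylated RNA was sequenced at both stages. Native ChIP-seq, made on chromatin that was not fixed, mapped acetylation of histone H3 lysine 9 (H3K9ac), crotonylation of the same residue (H3K9cr) and lactylation of lysine 18 (H3K18la) at both stages, and open chromatin was mapped by ATAC-seq in the younger embryos. All groups had 2 libraries, described as biological replicates. The sources used here do not tell how many embryos went into each.

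Oxidative phosphorylation takes place in the inner mitochondrial membrane. Complexes I and II pass electrons to ubiquinone, complex III passes them on to cytochrome c, and complex IV hands them to oxygen. Complexes I, III and IV pump protons, and complex V, the ATP synthase, lets them return and makes ATP. Most subunits are encoded in the nucleus, and a few core subunits in the mitochondrial genome. Complex II has no subunit from the mitochondrial genome. Neural progenitors are known to rely strongly on glycolysis, and neurons on respiration.

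The RNA libraries held between 17059544 and 18485855 estimated counts, of which 1.60% to 1.77% came from the mitochondrial genome. All 6 telencephalon markers were present, and all fell, from between 1967 and 2094 CPM in sum to between 1236 and 1274 CPM (CPM, counts relative to the TMM-scaled library size). Between the stages, the 6 markers of dividing cells and the 5 of radial glia also fell. Of 6 neuronal markers, 5 rose, and the 4 markers of microglia, 4 of endothelium and 3 of mural cells all rose. Of 4 erythroid markers, 3 rose and the embryonic globin gene Hbb-y fell. The part of these shifts in the changes described here was not tested. In bulk tissue, fewer cells of a type and less RNA per cell cannot be told apart.

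Most members had less RNA at E16.5 than at E13.5, and the falls were modest. Together they took 0.583% and 0.590% of all counts in the E13.5 libraries and 0.503% and 0.492% in the E16.5 libraries, so that the 2 stages did not overlap. The summed level was 5995 ± 27.4 CPM at E13.5 and 4880 ± 73.3 CPM at E16.5 (mean ± SD, n = 2 libraries each), a fall of 18.6%. Of the 96 members, 90 passed the filter on low counts and were tested. By edgeR's quasi-likelihood test, with Benjamini-Hochberg adjustment over all 16237 tested genes, 47 of the 90 fell (52.2%), 2 rose and 41 were not called. Of all tested genes, 29.2% fell and 28.4% rose, or 57.6% in either direction. Among the 11601 genes within the range of levels of the members other than the tissue-restricted isoforms (5.34 to 672 CPM), 38% fell. With upper-quartile scaling, which moved the median of all genes from 0.01 to 0.10 on the log2 scale, the split was 35 lower and 6 higher.

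The median log2 change of the tested members was -0.27, against 0.01 over all tested genes, whose quartiles were -0.35 and 0.53. The log2 change was below 0 in 76 of 90 members (84.4%), and in 49.5% of all tested genes. The libraries of the 2 stages did not overlap, with E16.5 lower, in 67 members (74.4%), against 39.8% of all tested genes. They did not overlap with E16.5 higher in 8 members (8.89%), against 39.7%. The members' changes were therefore mostly of 1 sign, while those of all tested genes spread to both sides. The quartiles and these shares were not computed within the members' range of levels. Among the called members only Ndufaf8 fell and only Ndufa4l2 rose by more than 1.5-fold. By the authors' deposited DESeq2 table, 33 of the 92 members with any count fell and 1 rose at an adjusted p under 0.05. All of these were called here in the same direction. Of the 26550 genes with a log2 change in that table, 14.5% fell and 12.8% rose. These include genes below the filter used here, and no share within the members' range of levels was computed for that table.

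**Figure D1:**
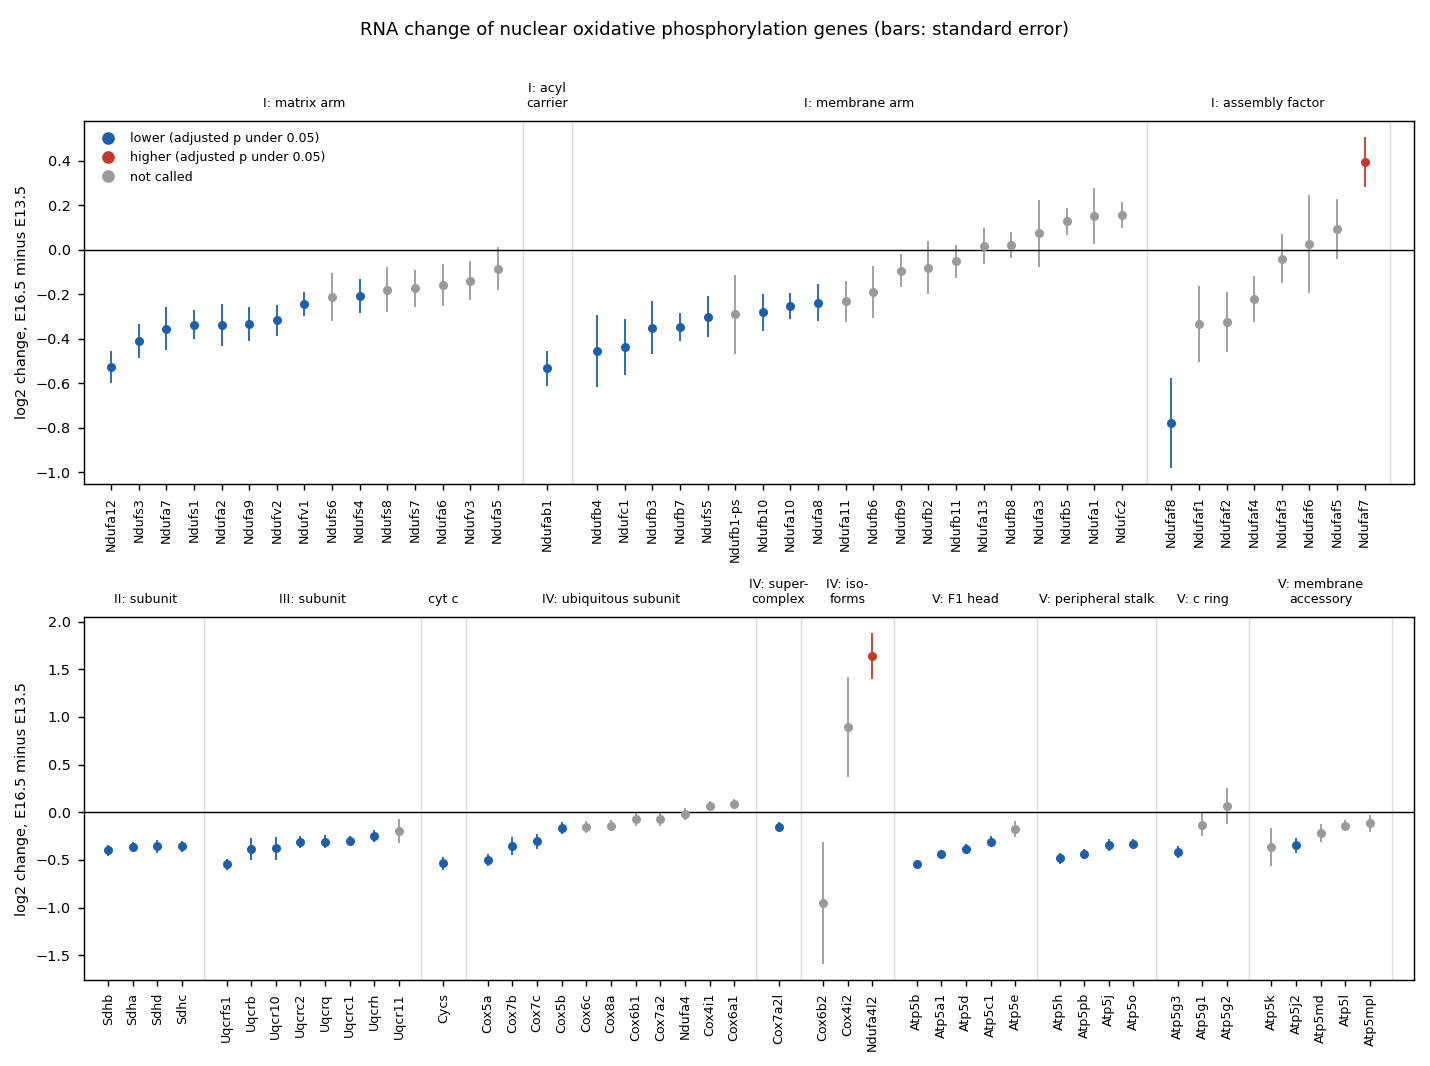
Log2 change in RNA from E13.5 to E16.5 (vertical axis) of 89 of the 90 tested members, ordered by complex and part along the horizontal axis. Bars show the standard error from edgeR, blue points fell, red points rose and grey points were not called. All 4 complex II genes and all 4 tested peripheral stalk genes were called lower, and Ndufa4l2 stands above all others at 1.64.

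The members' promoters are shown next because several carry short motifs of known regulators of this gene group. NRF1 (nuclear respiratory factor 1) is a transcription factor with many targets among respiratory genes. GABPA is an ETS-family factor that acts on the same kind of gene, YY1 is a factor that often binds near the start site, CREB proteins answer to cyclic AMP, and ESRRA is an orphan nuclear receptor of energy metabolism. RefSeq promoter windows (GRCm38.p6, 250 bases before to 50 after the start) were found for 78 of the 95 loci. The loci without a window included Atp5a1, Atp5mpl, Cox4i1, Cox4i2, Cox6a2, Cox6c, Cox8c, Ndufa2, Ndufa4l2, Ndufaf6, Ndufb9, Ndufs1, Sdhc, Uqcrb, Uqcrc2 and Uqcrq.

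The 7 stretches below were chosen after the motif search, to show NRF1, ETS, YY1 and CREB matches. Capitals mark matches to these 4 kinds of motif, and matches to the SP-family letters are left in lower case. Each sequence reads 5′ to 3′ along the gene, and all are on the minus strand of the chromosome except Ndufs7. The Cycs stretch (chr6:50566570-50566744) ends just before the start and holds a CREB-type match 169 bases and an NRF1-type match 61 bases upstream. That of Uqcrfs1 (chr13:30545317-30545416) holds a CREB-type match 29 bases upstream. That of Ndufa8 (chr2:36049339-36049472) is the whole gap between its start and that of Morn5 on the other strand, with NRF1-type matches 29 and 9 bases upstream. The Sdhd stretch (chr9:50603850-50603900) is likewise the gap to Timm8b, with an ETS-type match. Cox6a1 (chr5:115348959-115349128) has 2 NRF1-type matches and an ETS-type match. For Ndufa9 (chr6:126849099-126849128) and Ndufs7 (chr10:80249461-80249490) only the YY1-type match inside the transcript is shown, with its neighbouring bases.
Cycs: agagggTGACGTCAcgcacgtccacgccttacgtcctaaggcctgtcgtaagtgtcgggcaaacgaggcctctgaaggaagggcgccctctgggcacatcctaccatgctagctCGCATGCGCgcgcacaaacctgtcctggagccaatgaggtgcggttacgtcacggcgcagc
Uqcrfs1: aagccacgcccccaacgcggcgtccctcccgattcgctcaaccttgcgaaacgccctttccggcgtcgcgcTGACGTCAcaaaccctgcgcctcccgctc
Ndufa8: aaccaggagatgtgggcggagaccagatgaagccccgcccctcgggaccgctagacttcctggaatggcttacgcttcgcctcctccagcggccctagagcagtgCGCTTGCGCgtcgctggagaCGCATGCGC
Sdhd: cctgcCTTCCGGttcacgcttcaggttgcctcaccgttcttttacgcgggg
Cox6a1: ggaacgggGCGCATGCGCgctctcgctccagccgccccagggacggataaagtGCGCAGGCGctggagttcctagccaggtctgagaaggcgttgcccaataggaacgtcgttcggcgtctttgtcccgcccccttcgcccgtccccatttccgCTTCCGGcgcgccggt
Ndufa9: ggcattgtgggagAAGATGGCGgccgccgt
Ndufs7: aaggccgaggccAAGATGGCGgcgctggcg

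Motifs were searched on both strands of the whole window. The NRF1 letters GCGCATGCG occurred at 11 of 78 loci (14.1%) and in 2.61% of the 17492 genes with a window. With any base at the sixth position (GCGCANGCG, which includes the former), the counts were 23 loci (29.5%) and 9.63%. The ETS letters CCGGAAG occurred at 19 loci (24.4%) against 12.9% of all. The YY1 letters AAGATGGCG occurred at 8 loci (10.3%) against 2.14%, and the shorter AAGATGGC, which includes them, at 11 loci (14.1%) against 3.57%. The CREB letters TGACGTCA occurred at 5 loci (6.41%) against 2.54%. The ESRRA half-site AAGGTCA occurred at 8 loci (10.3%) against 4.73%, and the SP-family letters GGGCGG, a common feature of CpG-rich promoters, at 36 loci (46.2%) against 49.2%.

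The YY1 letters lay mostly just after the start. Of the 11 matches to AAGATGGC, 9 read in the direction of the gene and lay after the start, beginning 10 to 38 bases into the transcript, as in Ndufa9 and Ndufs7 above. Of the 11 loci with GCGCATGCG, 8 had it upstream of the start. A TATAAA box 40 to 16 bases before the start was found in none of the 83 member windows (some loci have 2 listed starts), and in 2.53% of all windows. The median GC content was 58.7% in member windows and 56.3% in all, with medians of 20 and 13 CG dinucleotides. Among the loci that fell in RNA, 3 of 39 had GCGCATGCG, and among those tested that did not fall, 8 of 36. For the wider GCGCANGCG the counts were 12 of 39 and 11 of 36, so the difference was not seen with these letters. For the YY1 letters AAGATGGCG they were 6 of 39 and 2 of 36, and for the shorter AAGATGGC 7 of 39 and 4 of 36. None of these differences was tested. These are descriptions of letters in a window and say nothing of binding.

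**Figure D2:**
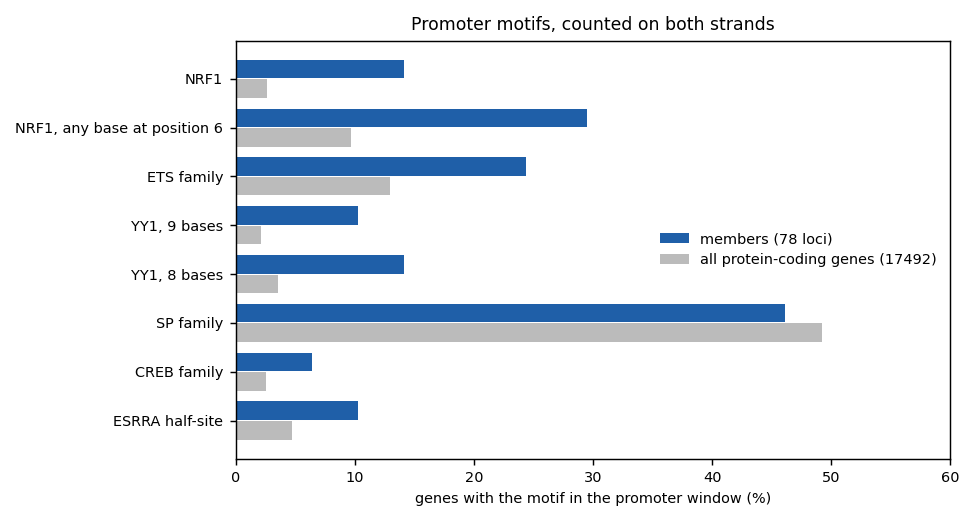
Share of genes (horizontal axis, %) with each motif in the promoter window, for the 78 member loci (blue) and all 17492 protein-coding genes with a window (grey). The NRF1 bars stand at 14.1% and 2.61%, while those of the SP family stand at 46.2% and 49.2%.

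Complex I, the NADH dehydrogenase, has a matrix arm that takes electrons from NADH and a membrane arm that pumps protons. Of its 45 genes, 20 fell (44.4%), 1 rose and 24 were not called. For this and the counts by complex below, the share of genes in the members' range of levels that fell was 38%. The matrix arm moved most evenly: 10 of 16 genes fell, all 16 log2 changes were below 0, and the E16.5 libraries were below the E13.5 libraries in each of the 16. Among the core subunits, Ndufs1, which carries several iron-sulfur clusters, stood at 80.4 and 87.1 CPM at E13.5 and at 63.9 and 68.7 CPM at E16.5 (log2 change -0.34, SE 0.065, adjusted p = 0.00259). Ndufv1, which binds FMN and NADH, stood at 80.5 and 79.7 CPM and then at 69.1 and 66.2 CPM (log2 change -0.24, adjusted p = 0.00532). The core subunits Ndufs3 and Ndufv2 also fell, with log2 changes of -0.41 and -0.32. The core subunits Ndufs7 and Ndufs8 had log2 changes of -0.17 and -0.18 and were not called (adjusted p = 0.113 and 0.170).

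The largest fall of the matrix arm was that of the accessory subunit Ndufa12, from 53.9 and 57.0 CPM to 40.2 and 36.8 CPM (log2 change -0.53, SE 0.071, adjusted p = 0.000401). The acyl carrier protein Ndufab1, which is built into both arms and also serves mitochondrial fatty acid synthesis, stood at 46.9 and 42.7 CPM and then at 30.4 and 31.6 CPM (log2 change -0.53, SE 0.078, adjusted p = 0.000598). Neither gene overlapped between the stages. The membrane arm was mixed. Of its 20 genes, 8 fell (40%, near the 38% given above) and 12 were not called, with log2 changes from -0.45 (Ndufb4) to 0.16 (Ndufc2). Ndufb7 fell from 49.2 and 48.7 CPM to 38.1 and 38.9 CPM (adjusted p = 0.00207), whereas Ndufc2 stood at 62.8 and 59.8 CPM and then at 70.1 and 66.4 CPM (adjusted p = 0.0543). With upper-quartile scaling Ndufc2 was called higher (log2 change 0.25, adjusted p = 0.00763). Ndufb4 is uncertain, since its near copy Ndufb4c, a pseudogene in the table, held 222 and 209 counts in the E13.5 libraries and 176 and 173 in the later ones, and reads could be split between them. Its call was also lost without E13.5 replicate 2 or E16.5 replicate 2 (adjusted p = 0.143 and 0.173), and with DESeq2 (adjusted p = 0.156).

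Summed over genes, the matrix arm fell from 772 ± 9.66 to 631 ± 16.3 CPM (18.2%) and the membrane arm from 678 ± 2.56 to 624 ± 15.8 CPM (8.02%), with n = 2 per stage and no overlap for either. The 8 Ndufaf assembly factors, which help to build complex I but are not part of it, went from 108.7 ± 0.135 to 103.8 ± 0.0426 CPM in sum (n = 2). Of these, Ndufaf8 fell from 7.33 and 6.40 CPM to 3.8 and 4.20 CPM (log2 change -0.78, SE 0.20, adjusted p = 0.0111). Ndufaf7, a mitochondrial methyltransferase, was the complex I gene that rose, from 18.1 and 18 CPM to 21.8 and 25.7 CPM (log2 change 0.39, SE 0.11, adjusted p = 0.0168). The other 6 assembly factors were not called. Neither call was stable. With DESeq2 the adjusted p was 0.0556 for Ndufaf8 and 0.0827 for Ndufaf7. The call of Ndufaf8 was lost without E16.5 replicate 1 (adjusted p = 0.0558), and the call of Ndufaf7 without E13.5 replicate 1, E13.5 replicate 2 or E16.5 replicate 2 (adjusted p = 0.0554, 0.0507 and 0.0896). Without E13.5 replicate 2, the count of complex I genes that fell was 12.

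Complex II, the succinate dehydrogenase shared with the citric acid cycle, fell as a whole. Sdha, the flavoprotein, stood at 181 and 185 CPM at E13.5 and at 143 CPM in both E16.5 libraries (log2 change -0.36, SE 0.050, adjusted p = 0.000443). Sdhb, the iron-sulfur subunit, stood at 86.9 and 86.4 CPM and then at 68.6 and 62.8 CPM (log2 change -0.40, adjusted p = 0.000724). The membrane anchors Sdhc and Sdhd fell by 0.36 each on the log2 scale (adjusted p = 0.000856 and 0.00276). The 4 changes lay between -0.40 and -0.36, and no gene overlapped between the stages. Timm8b, whose start lies 52 bp from that of Sdhd on the other strand, had a log2 change of -0.39 and was not called (adjusted p = 0.0709).

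Complex III, the cytochrome bc1 complex, lost RNA in 7 of 8 genes. Uqcrfs1, the Rieske iron-sulfur protein, had the largest change of the complex, from 79.6 and 77.3 CPM to 54.4 and 52.9 CPM (log2 change -0.55, SE 0.056, adjusted p = 8.22e-05). The core proteins Uqcrc1 and Uqcrc2 fell by 0.30 and 0.31 on the log2 scale (adjusted p = 0.00117 and 0.00381). Uqcr11, with the smallest change of the complex at -0.20, had overlapping libraries and was not called (adjusted p = 0.212), but it was called lower without E16.5 replicate 1 (log2 change -0.37, adjusted p = 0.0326). The summed level of complex III was 517 ± 1.13 CPM at E13.5 and 410 ± 0.345 CPM at E16.5 (n = 2), 20.8% lower. Somatic cytochrome c, the mobile carrier that also starts the apoptosome once released, fell with them: Cycs stood at 59.8 and 57.1 CPM and then at 41 and 39.5 CPM (log2 change -0.54, SE 0.063, adjusted p = 0.000184).

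Complex IV, cytochrome c oxidase, changed least in sum. Its 11 ubiquitous subunits went from 844 ± 9.98 to 794 ± 14.2 CPM (n = 2, 5.98% lower). Of the 11, 4 were called lower (36.4%, near the 38% of genes in the members' range of levels). These were Cox5a, Cox5b, Cox7b and Cox7c. Cox5a fell from 63.6 and 65.2 CPM to 46.2 and 44.8 CPM (log2 change -0.50, SE 0.059, adjusted p = 0.000176), and Cox5b, a zinc-binding subunit, from 67.0 and 71.7 CPM to 63.4 and 60.2 CPM (log2 change -0.17, adjusted p = 0.0477). Cox4i1, the regulatory subunit that assembles early with Cox5a, stood at 162 and 160 CPM and then at 168 and 169 CPM (log2 change 0.07, adjusted p = 0.281). Cox6a1 stood at 158 and 162 CPM and then at 172 and 169 CPM (log2 change 0.09, adjusted p = 0.163). In both genes every E16.5 library was above every E13.5 library, but the difference did not pass the test. With upper-quartile scaling both passed it as higher (log2 changes 0.16 and 0.18, adjusted p = 0.0256 and 0.0154). Cox7a2l, which links complexes III and IV into supercomplexes, fell by 0.15 on the log2 scale (adjusted p = 0.0381). The smaller falls of complex IV were fragile. The number called lower was 3 without E13.5 replicate 2, E16.5 replicate 1 or E16.5 replicate 2. Cox7a2l was lost without any single library (adjusted p from 0.0624 to 0.152), Cox5b without each of the same 3 libraries (adjusted p = 0.214, 0.0519 and 0.186), and Cox7b without E16.5 replicate 2 (adjusted p = 0.0547). With DESeq2, Cox5b and Cox7a2l were not called (adjusted p = 0.183 and 0.188).

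Several complex IV subunits exist as paralogs for certain tissues or conditions. Ndufa4l2, a hypoxia-responsive paralog of the complex IV subunit Ndufa4, had the largest change of any tested member. It stood at 2.28 and 1.99 CPM at E13.5 and at 5.98 and 7.30 CPM at E16.5 (log2 change 1.64, SE 0.24, adjusted p = 0.000616), with no overlap. The change of Ndufa4l2 passed the test without each library in turn. Ndufa4 itself stood at 57.1 and 61.5 CPM and then at 56.7 and 60.3 CPM (adjusted p = 0.817), and its libraries overlapped. Ndufa4l2 is also known as a gene of brain pericytes. The 3 mural cell markers, Pdgfrb, Rgs5 and Kcnj8, rose from 53.9 to 54.7 CPM in sum at E13.5 to between 151 and 167 CPM at E16.5, with log2 changes of 1.42, 1.67 and 1.60. Their part in the change of Ndufa4l2 was not tested.

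The other paralogs were low. Cox4i2, the hypoxia and lung form of Cox4i1, stood at 0.420 and 1.1 CPM and then at 1.79 and 1.09 CPM (adjusted p = 0.178). Cox6b2, the testis form of Cox6b1, stood at 0.781 and 1.76 CPM and then at 0.279 and 1.04 CPM (adjusted p = 0.239). The muscle and testis forms Cox6a2, Cox7a1, Cox7b2, Cox8b and Cox8c did not pass the filter on low counts. Of these, Cox7b2, Cox8b and Cox8c had 0 counts in all 4 libraries, and Cox7a1 did not exceed 0.120 CPM. The muscle markers, including Ckm and Acta1, were all too low to be tested as well, with sums between 0.926 and 1.45 CPM over 5 genes. The ubiquitous partners Cox6b1, Cox7a2 and Cox8a were expressed and not called, with log2 changes of -0.08, -0.07 and -0.14.

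Of the 5 complexes, complex V fell most in sum, by 25.4%. The sum is weighted towards abundant genes, here Atp5b and Atp5a1. The median log2 change was -0.34 in complex V and -0.36 in complex II. Of the 17 tested complex V genes, 10 fell and 7 were not called. The F1 head, which holds the catalytic sites, fell by 27.6%, from 1693 ± 1.32 to 1226 ± 21.3 CPM (n = 2). Atp5b, the catalytic beta subunit (chr10:128083307-128090388), stood at 803 and 792 CPM and then at 558 and 537 CPM (log2 change -0.54, SE 0.036, adjusted p = 8.37e-06). Atp5a1, the alpha subunit, stood at 618 and 626 CPM and then at 462 and 454 CPM (log2 change -0.44, SE 0.036, adjusted p = 2.53e-05). These had the smallest adjusted p values of all members. The gamma and delta subunits Atp5c1 and Atp5d fell by 0.31 and 0.38 on the log2 scale, and the epsilon subunit Atp5e was not called (log2 change -0.18, adjusted p = 0.102), though it was without E16.5 replicate 1 (log2 change -0.28, adjusted p = 0.0348).

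The peripheral stalk, which holds the head still while the rotor turns, fell in all 4 tested genes. Atp5h stood at 88.6 and 89.9 CPM and then at 62.0 and 65.8 CPM (log2 change -0.48, SE 0.056, adjusted p = 0.000168). The stalk subunits Atp5pb, Atp5j and Atp5o fell by 0.44, 0.34 and 0.34 on the log2 scale. The c ring, the rotor itself, is made of 1 protein that is encoded by 3 genes differing in their import signals, and these genes differed. Atp5g3 fell from 101 and 109 CPM to 80.9 and 76.4 CPM (log2 change -0.42, adjusted p = 0.000523). Atp5g1 stood at 53.8 and 46.6 CPM and then at 39.9 and 51.7 CPM, and Atp5g2 at 12 and 14.2 CPM and then at 11.2 and 16.3 CPM. Both overlapped between the stages and were not called (adjusted p = 0.393 and 0.786), except that Atp5g1 was called lower without E16.5 replicate 2 (log2 change -0.34, adjusted p = 0.0232). The difference between the 3 genes' changes was not tested. Of the 5 membrane accessory genes only Atp5j2 fell (log2 change -0.35, adjusted p = 0.00504), although the E16.5 libraries lay below the E13.5 libraries in all 5.

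**Figure D3:**
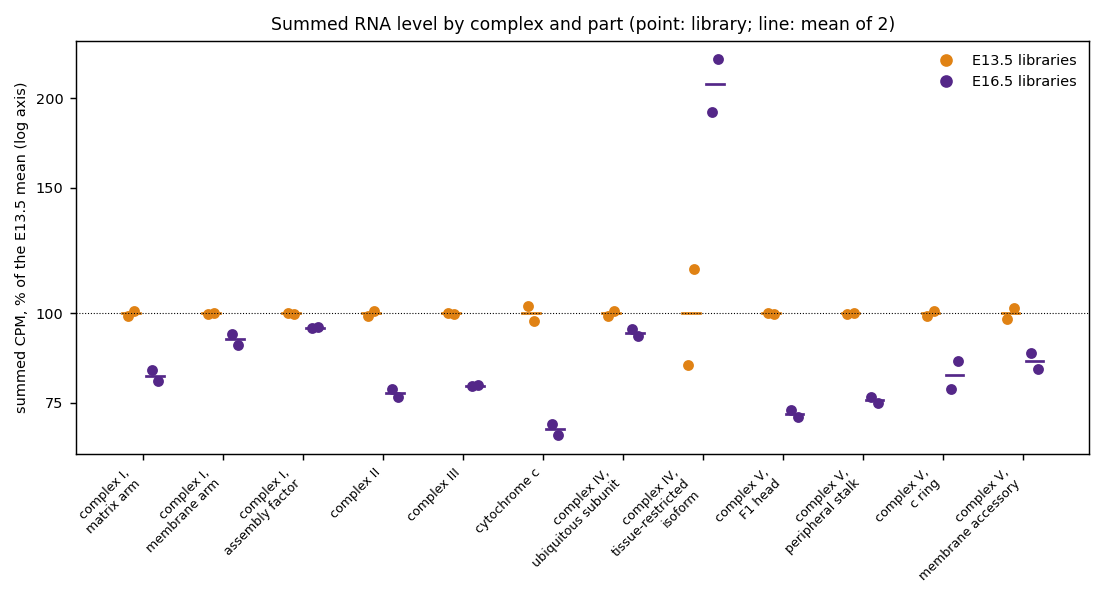
Summed CPM of each complex or part in the 4 RNA libraries, as a percentage of the E13.5 mean on a log axis, with E13.5 in orange, E16.5 in purple and the mean of 2 libraries as a line. The F1 head stands at 72.4% and the ubiquitous complex IV subunits at 94.0% of their E13.5 means. The tissue-restricted isoforms of complex IV, mostly Ndufa4l2, are the group that lies above 100% at E16.5.

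More abundant members were called lower more often. Of the 30 tested members with the lowest mean CPM 8 fell, of the middle 30 members 16 and of the highest 30 members 23, with median log2 changes of -0.20, -0.23 and -0.32. Across the 90 members, Spearman's rho between mean CPM and log2 change was -0.22. This is a description over genes of the same 4 libraries, and CPM also reflects transcript length. Precision rises with counts, so a member at 10 CPM had to change more than one at 100 CPM to be called.

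Other parts of the mitochondrial energy pathway were read from lists chosen with earlier results of these data known. For the counts of these lists, 38% of genes in the members' range of levels fell, and 28.4% of all tested genes rose. Of 17 citric acid cycle genes, 12 fell and none rose, with a median log2 change of -0.34. Cs, citrate synthase, fell from 273 ± 10.7 to 186 ± 5.26 CPM, and Suclg2, the GTP-forming succinyl-CoA ligase subunit, from 22.5 ± 0.472 to 9.14 ± 0.824 CPM. Of 20 genes of protein import and chaperones, 14 fell and 3 rose, with a median of -0.40. Here Hspd1, the mitochondrial Hsp60, fell from 236 ± 2.45 to 136 ± 3.25 CPM. Of 11 tested carriers and energy transfer genes, 10 fell, among them the ADP/ATP carrier Slc25a5 (log2 change -1.06) and the cytosolic creatine kinase Ckb (log2 change -1.05). The exception was Ckmt1, the ubiquitous mitochondrial creatine kinase, which rose from 3.49 ± 0.521 to 11.6 ± 0.516 CPM (log2 change 1.73).

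Of 47 assembly factors and subunits outside the symbol rule, 16 fell, a share near that of the genes in the members' range of levels, and 1 rose (Foxred1, a complex I assembly factor, log2 change 0.36). Of 14 genes of cristae and inner membrane organisation, 6 fell and 4 rose. The falls were near the 38% among genes in the members' range of levels, and the rises near the 28.4% among all tested genes. No share of rises was computed within that range of levels. Among the cristae genes that rose was the cardiolipin remodelling enzyme Taz (log2 change 0.57). Of 18 regulators of mitochondrial gene expression, 9 fell and none rose. These included genes of the factors whose motifs were searched above: Nrf1 fell from 75.8 ± 0.714 to 45.7 ± 0.405 CPM, Gabpa from 79.0 ± 4.77 to 55.8 ± 1.02 CPM, Yy1 from 149 ± 8.71 to 99.7 ± 10.6 CPM and Sp1 from 112 ± 2.14 to 77.9 ± 3.99 CPM. Ppargc1a, the coactivator PGC-1alpha, was not called (10.01 ± 0.656 and 9.84 ± 0.958 CPM, adjusted p = 0.894), nor was Esrra (adjusted p = 0.195). Tfam, which packages mitochondrial DNA and starts its transcription, fell from 43.4 ± 1.20 to 30.6 ± 0.188 CPM.

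The 13 oxidative phosphorylation genes of the mitochondrial genome did not follow 1 direction. Of these, 6 fell, 3 rose and 4 were not called, with a median log2 change of -0.06. mt-Co1 rose by 0.07 on the log2 scale (adjusted p = 0.0420) and mt-Nd5 fell by 0.68. mt-Co2 stood at 448 ± 605 CPM at E13.5, an SD above its mean, and at 23.5 ± 8.48 CPM at E16.5, so its level rests on 1 library. The adjusted p of mt-Cytb, which rose by 0.07, was 0.0103.

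Nearly all member loci carried H3K9 acylation at both stages. A locus was counted as marked when a peak overlapped the gene span or the 2 kb on either side of it (GRCm38). H3K9ac peaks were present in both libraries at 90 of 95 loci (94.7%) at E13.5 and at 90 at E16.5. Over all 21887 protein-coding genes with a position the shares were 65.7% and 68.6%, and over the 13094 genes at 1 CPM or more they were 95.5% and 96.9%. H3K9cr was present at 89 loci (93.7%) at E13.5 and 90 (94.7%) at E16.5, against 65.9% and 68.3% of all and 95.7% and 96.8% of the expressed genes. The members' shares count low and silent paralogs, which the shares of expressed genes leave out, so the 2 are not matched. The loci not marked in both libraries were all such paralogs: Cox6a2, Cox6b2, Cox7a1, Cox7b2, Cox8b and Cox8c. All other member loci had H3K9ac and H3K9cr peaks in both libraries of each stage. Cox6a2, Cox8b and Cox8c had no peak in any of the 14 lists.

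H3K18la was a little less common, with 86 loci (90.5%) at E13.5 and 82 (86.3%) at E16.5, against 62% and 58.6% of all and 89.5% and 84.9% of expressed genes. ATAC-seq peaks were present in both E13.5 libraries at 69 loci (72.6%), against 52.1% of all and 77.8% of expressed genes. All 14 lists had a peak at 65 loci (68.4%), against 44.9% and 69.3%. These member shares also include the low and silent paralogs and so are not matched to those of expressed genes. No share was computed for the members at 1 CPM or more alone. Of the 95 windows, 61 (64.2%) held at least part of another protein-coding gene, against 37.2% of all protein-coding genes, so a peak in a window need not belong to the member. The median gene span was 7279 bp for members and 25696.5 bp for expressed genes, which gave members a shorter window.

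Member loci gained or lost few peaks between the stages. A gain was defined as a peak in both E16.5 libraries and in neither E13.5 library, and a loss as the reverse. H3K9ac was gained at 1 locus (1.05%, against 1.77% of all protein-coding genes and 0.741% of those at 1 CPM or more) and lost at none (against 0.119% and 0.0458%). The gain was at Cox7a1, the muscle form of Cox7a2, with fold enrichments of 6.73 and 5.06, among the lowest of the members' peaks, and almost no RNA at either stage. H3K9cr was neither gained nor lost at any member (of all genes 1.25% gained and 0.0594% lost it, of the expressed 0.504% and 0.0458%). H3K18la was gained at none (0.694% of all and 0.489% of expressed genes) and lost at 1 locus (1.05%, against 1.73% and 2.03%). The loss was at Ndufa1, a small membrane arm subunit on the X chromosome, with fold enrichments of 3.12 and 5.38 at E13.5. Its RNA did not fall (11 and 10.8 CPM, then 12 and 12.2 CPM, adjusted p = 0.330), and its H3K9ac and H3K9cr peaks were present in all 8 lists. With the same number of peaks taken from each library, there was no H3K9ac gain and no H3K18la loss at any member. The window of Cox7a1 also holds part of Capns1, and that of Ndufa1 part of Rnf113a1. Counts this small moved with single libraries. H3K18la losses numbered 2 without E13.5 replicate 1 or E16.5 replicate 2 of that mark and 3 without E16.5 replicate 1, which also gave 1 gain. Without E16.5 replicate 1 of H3K9ac there were 2 gains and 1 loss, and without E13.5 replicate 1 or E16.5 replicate 2 of H3K9cr there was 1 gain.

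A few expressed members lacked H3K18la peaks. Ndufaf1, Ndufa3 and Cox6a1 had H3K9ac and H3K9cr peaks in all 8 lists and no H3K18la peak in any of 4. Cox6a1 was not a weakly expressed gene, with at least 158 CPM in every library, and its promoter, printed above, held matches to both the NRF1 and ETS letters. Its H3K9 peaks ranked between the 20.9th and 49.2nd percentile of the marked genes of their lists. Uqcr10 had an H3K18la peak in 1 of 4 lists. Neither ATAC-seq list held a peak at Ndufa12, Ndufa7, Ndufs3, Ndufs7, Ndufb8, Cox4i2 and Atp5g3, or at the silent Cox6a2, Cox7a1, Cox8b and Cox8c. Of genes at 1 CPM or more, 82.9% and 83.6% had a peak in these lists. With their depth unknown, a missing peak does not show closed chromatin. The first group included Ndufa12 and Atp5g3, both well expressed and both lower at E16.5.

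The members' H3K9 peaks ranked above the middle of their lists. Fold enrichment is the peak caller's own value over its local background, as the authors deposited it, and was ranked only within a list, among all protein-coding genes with a peak there. The median member stood at the 73.9th to 80.6th percentile of the 4 H3K9ac lists and at the 74.7th to 80.5th of the 4 H3K9cr lists. It stood at the 64.3rd and 65.9th percentile of the 2 ATAC-seq lists. In the 4 H3K18la lists it stood only at the 40.2nd to 50.9th percentile. Among marked genes at 1 CPM or more, the ranges were 71.0 to 79.0 for H3K9ac, 73.5 to 79.9 for H3K9cr and 37.9 to 48.1 for H3K18la. Members therefore ranked high for both marks of lysine 9 and near or below the middle for lactylation of lysine 18. The part of RNA level and gene length in these ranks was not tested. No test was made of this rank, since peaks of 1 library are not replicates.

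Of the 5 complexes, complex V had the highest median rank in each of the 8 H3K9 lists. In the E13.5 libraries of H3K9ac the median complex V locus stood at the 92.6th and 91.8th percentile, the median complex I locus at the 67.5th and 76.1st and the median complex I assembly factor at the 53.0th and 51.8th. In the E16.5 libraries complex V stood at the 78.5th and 83.4th and complex I at the 74.7th and 72.7th, and in the first of them complex II stood close behind complex V at the 77.6th. Atp5pb, the stalk's b subunit, stood between the 99.1st and 99.7th percentile in all 8 H3K9 lists, with H3K9ac fold enrichments of 117 and 119 in the E13.5 lists, and 143 and 137 in those of E16.5. Atp5d and Atp5c1 of the F1 head stood between the 95.9th and 99.8th and between the 97.0th and 99.4th percentile. Cycs stood between the 93.5th and 98.9th. At the other end, Cox4i2 stood between the 0.637th and 11th percentile of the same lists. Ndufs8, an expressed core subunit of complex I, stood between the 22.8th and 34.8th.

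Among H3K18la peaks the highest member values were those of Ndufa4l2 and Atp5d. Ndufa4l2 had fold enrichments of 30.6 and 39.9 at E13.5 and of 29.5 and 22.6 at E16.5, while the median member in these lists had between 7.03 and 8.27. Atp5d had 25.8 and 44.2 in the E13.5 lists and 21.8 and 36.9 in those of E16.5. Ndufa4l2 was the highest member in replicate 1 of each stage, and Atp5d in replicate 2. The windows of these 2 genes also hold other protein-coding genes: Shmt2 and Stac3 lie within 2 kb of Ndufa4l2, and Cbarp and Midn within 2 kb of Atp5d. Cycs, with no other gene in its window, had 15.6 and 23.2 in the E13.5 lists and 22.2 and 23.9 in those of E16.5. Among ATAC-seq peaks Cox7c led in both libraries, with 20.2 and 23.5.

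**Figure D4:**
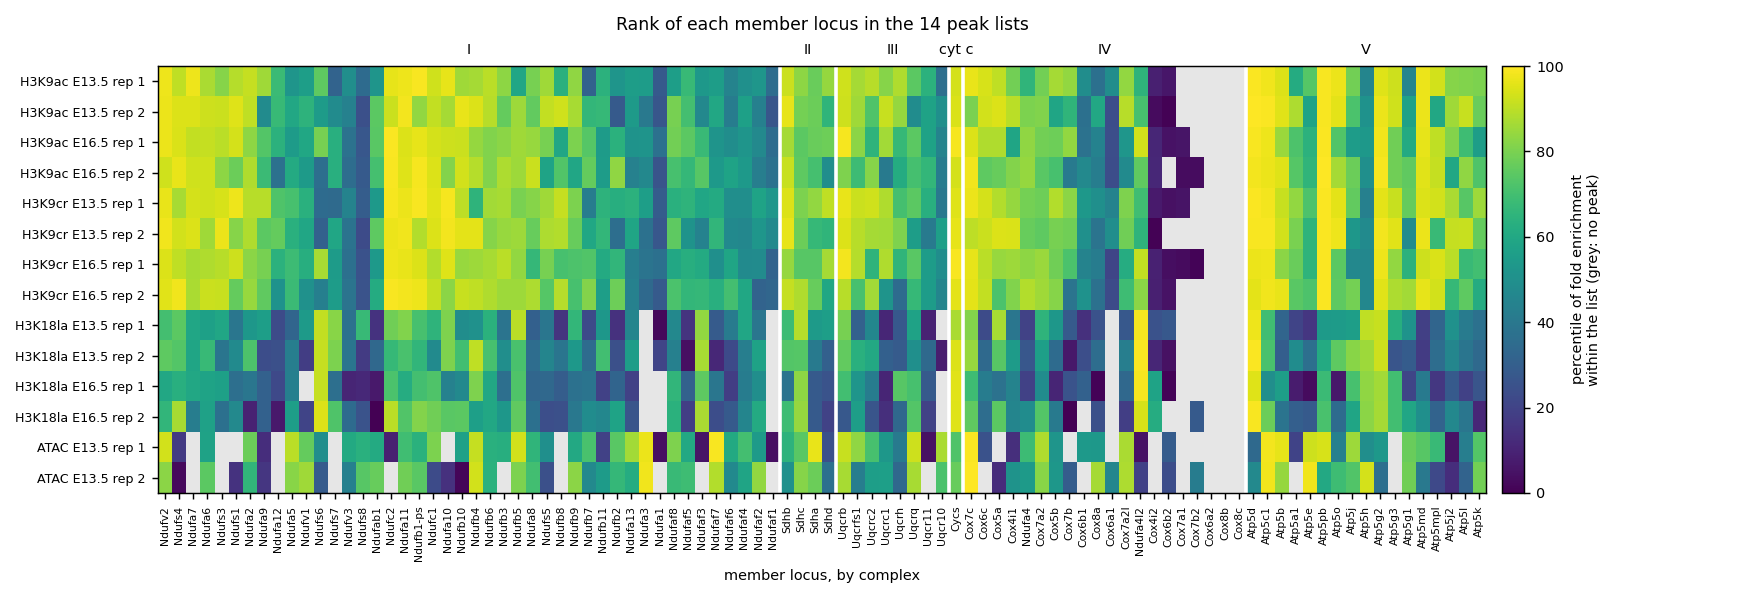
Percentile of the strongest peak at each plotted member locus, by fold enrichment, among all marked protein-coding genes of the same list. Rows are the 14 lists, columns 94 of the 95 loci by complex, yellow is high, dark blue low and grey means no peak. The 8 H3K9 rows are mostly green to yellow, the 4 H3K18la rows are darker, and the silent paralogs of complex IV are grey.

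Members that fell in RNA had higher-ranking H3K9 peaks than members that did not. In the first H3K9ac library at E13.5 the median percentile was 85.9 for the 47 that fell and 63.6 for the other 43 tested members. In the first H3K9cr library at E13.5 the medians were 88.4 and 65.0, and in the second libraries 87.6 and 59.9 for H3K9ac and 86.4 and 64.2 for H3K9cr. At E16.5 the order was the same, with 82.4 and 61.3 in the first H3K9ac library and 77.4 and 66.4 in the second. The members that fell were also the more abundant ones, as given above, and the part of the RNA level in this difference was not tested. In the H3K18la lists the medians were 54.5 and 40.4 in the first E13.5 library and 49.4 and 38.8 in the second. At E16.5 they were 43.8 and 37.3 in the first H3K18la library. In the second they were 46.9 and 48.6, where the order was opposite.

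Summits of the H3K9 marks lay downstream of the start at 80.0% to 85.9% of members for H3K9ac and 80.3% to 85.7% for H3K9cr. The shares over all protein-coding genes were not far below, at 73.7% to 78.8% and 75.1% to 78.7%. For loci with 1 listed start, the strongest H3K9ac peak had its summit at a median of 205 and 218.5 bp into the gene at E13.5 and of 233 and 199 bp at E16.5. H3K9cr summits lay at 175 and 192 bp at E13.5 and at 291.5 and 291 bp at E16.5, so the 2 stages did not overlap for this mark. The same was seen over all protein-coding genes, with 227 and 213 bp and then 285 bp in both libraries, and it is therefore not particular to the members. H3K18la summits had medians between 137 and 171 bp into the gene but a wide spread, with quartiles of -231 and 257 bp in the second E13.5 library. ATAC-seq summits had medians of 37 and 53 bp before the start. Among all protein-coding genes the H3K18la medians lay between 188 and 242 bp, and the ATAC-seq medians at -33 and -36 bp. Strongest peaks covered the start itself at 93.1% to 97.2% of members for H3K9ac and H3K9cr, at 84.7% and 86.9% for ATAC-seq and at 51.6% to 78.1% for H3K18la. Over all protein-coding genes the ranges were 69.9% to 76.1%, 61.0% and 62.4%, and 38.1% to 50.3%. The strongest peak was sought over the whole window, which was shorter for members than for expressed genes, as given above. All protein-coding genes with a peak were counted, at any RNA level. The part of gene length and RNA level in this difference was not tested.

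**Figure D5:**
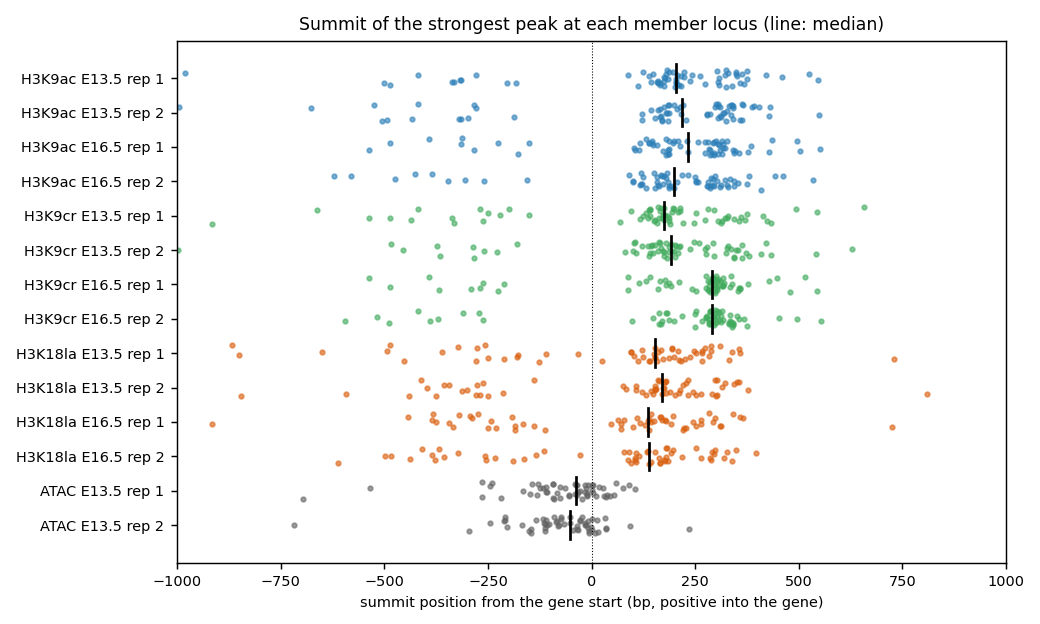
Position of the summit of the strongest peak from the gene start (horizontal axis, bp, positive into the gene) at member loci with 1 listed start, by library, with the median as a black line. Summits more than 1000 bp away (56 of 945) are not drawn but count in the medians. ATAC-seq summits cluster just before the start, and the H3K9cr summits at E16.5 gather near 291 bp.

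Many members shared their start region with a gene on the other strand. Of the 78 loci with a listed start, 22 (28.2%) had a divergent start within 1000 bp, against 8.48% of all genes with a listed start and 12.6% of those at 1 CPM or more. The closest pairs were Ndufa7 with the ribosomal protein gene Rps28 (10 bp), Ndufs3 with Kbtbd4 (19 bp) and Sdhd with Timm8b (52 bp). Atp5c1 paired with Kin at 102 bp and Ndufa8 with Morn5 at 135 bp. Atp5j, by 1 of its 2 listed starts, lay 148 bp from Gabpa, the gene of the ETS factor named above. Both genes of this last pair fell: Atp5j from 66.8 and 71.5 CPM to 56.1 and 53.0 CPM (log2 change -0.34, adjusted p = 0.00212) and Gabpa from 82.3 and 75.6 CPM to 56.5 and 55.1 CPM (log2 change -0.50). Peaks at such shared starts cannot be assigned to 1 of the 2 genes.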

How the data were processed

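Per the submitters' processing notes, RNA was quantified with Salmon 1.1.0 and tested with DESeq2 1.26.0, and chromatin reads went through Bowtie2 2.4.1 (GRCm38) and then MACS2 2.2.7.1. The deposited RNA table held expected counts (estimated, unscaled, 24.4% to 25.3% not whole per library). The authors' deposited comparison table gave a log2 change, a p-value and an adjusted p-value per gene. Per the file headers, each of 14 peak lists, 1 per library, gave a pileup signal whose scaling is not stated, −log10 p-values and q-values, and fold enrichment, a ratio to local background. The sources used here do not give the control, the handling of duplicates or the caller's settings. The 4 inputs were not analysed here.

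Counts were rounded and tested in edgeR 4.0.16 (R 4.3.3, TMM, filterByExpr, quasi-likelihood F test, 2 residual degrees of freedom) over 16237 genes, for E16.5 minus E13.5, with calls at an adjusted p under 0.05. DESeq2 1.42.0, other scalings and filters, a replicate block and leaving out each library were alternatives. Peaks within 2 kb of RefSeq gene spans and promoter motifs were counted in Python 3.11.15. The scripts were tested on simulated data. Members, gene lists, motifs and the rule for named genes (largest changes per complex, core subunits, paralog sets, exceptions, and peak gains and losses) were chosen with earlier results of these data known. With 2 libraries a group, p-values measure the spread between these libraries, and depth behind the peak lists is unknown. Some single-gene results are not reported here.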

Additional observations from a re-analysis of the deposited data

How the results depend on the processing

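Of the 90 tested members, 31 fell in each of 10 settings of the RNA test. Upper-quartile scaling gave 35 lower and 6 higher members, with a median log2 change of -0.18, and 13, 4 and 3 lower in complexes I, III and IV. It turned the uncalled log2 changes of Cox6b1, Cox7a2 and Ndufa4 to 0.016, 0.024 and 0.072. DESeq2 gave 33 lower and 1 higher, with 10 lower in complex I and 3 in complex IV. With a change over 1.5-fold also required, 1 member was lower and 1 higher: 1 lower in complex I and 0 in complexes II, III, IV and V. Replicate numbers are shared by the groups but the labels do not tie them to a litter or day, and deviations of same-numbered libraries correlated at 0.12. With the replicate block, 46 were lower and 2 higher, and 3 instead of 5 were lower in complex IV. Leaving out each library in turn gave 35 to 45 lower and 1 to 2 higher members, with 12 to 17 in complex I, 5 to 7 in complex III, 3 to 4 in complex IV and 10 to 13 in complex V. The changes of Ndufa4 (from -0.081 to 0.023), Atp5g1 (from -0.34 to 0.029) and Atp5g2 (from -0.24 to 0.30) then took either sign. For peaks, leaving out each library gave 1 to 2 H3K9ac gains, 0 to 1 losses, 0 to 1 H3K9cr gains, 0 to 1 H3K18la gains and 1 to 3 H3K18la losses. The H3K9ac gain went to 0 with equal numbers of peaks, and the H3K18la loss to 0 with equal numbers, a fold enrichment of at least 4 or the gene span only. The cause was not tested for any of these. Where a group kept 1 library, it was assumed to vary like the other group. With 2 libraries a group, small changes could not be told from library spread, and no depth is known for the peak lists.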
